A study of Mus musculus with 3 samples.

Results

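The genes described here are the genes of the glutathione, thioredoxin and peroxiredoxin systems, with superoxide dismutases and catalase, in group 2 innate lymphoid cells (ILC2s), which lack the antigen receptors of T and B cells and are known as makers of type 2 cytokines. They were chosen by name. All protein-coding genes of the peroxiredoxin, glutathione peroxidase, superoxide dismutase, thioredoxin (symbols starting with Txn) and glutathione S-transferase (alpha, mu, pi, theta, omega and kappa classes) families were taken, together with Gclc, Gclm, Gss, Gsr, Cat, Nfe2l2, Keap1 and Srxn1. The rule found 65 genes among 20983 protein-coding genes and 27179 gene IDs in the count table, and all 65 had a row. The Txn symbols also cover proteins that carry a thioredoxin fold but work in splicing or protein folding, and these are described apart.

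The series holds 1 group: ILC2s of wild-type C57BL/6 mice in 3 libraries, which the design text attributes to 3 mice. They are called mice 1, 2 and 3 here after the sample numbers. The cells were sorted as CD45, CD90.2, CD127 and KLRG1 positive and as negative for CD3, CD5, CD8, NK1.1, CD11b, CD11c and B220. The labels name no tissue, age, sex or time of collection, and no treated or mutant group was analysed here. With no second group, the values below describe levels, their spread between the mice, and differences between genes within a library.

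Cells remove superoxide and peroxides in steps. Superoxide dismutases turn superoxide into hydrogen peroxide, which catalase, peroxiredoxins and glutathione peroxidases then reduce. Peroxiredoxins are mostly recycled by thioredoxin and thioredoxin reductase, glutathione peroxidases by glutathione and glutathione reductase, and both reductases draw on NADPH. The transcription factor NRF2, encoded by Nfe2l2 and held in check by KEAP1, is known to induce many of these genes.

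Library totals were 17819551 to 26374248 counts. Levels are CPM, the counts of a gene per 1000000 counts of a library after TMM scaling, given for mice 1, 2 and 3 in that order or as mean ± SD (n = 3). A count of 0 allows a level of up to 0.115 to 0.171 CPM (3 counts in the library), which covers counting error only. All 15 ILC2 markers of the list used here reached 1 CPM in each mouse, among them Gata3, Klrg1 and Il7r. Immunoglobulin genes with Jchain took 1.61%, 5.25% and 9.63% of counts in mice 1, 2 and 3, while Pax5 and Ms4a1, which mark B cells, were at 0 counts and the B-lineage genes Cd79b (139, 129 and 155 CPM) and Cd79a (231, 211 and 1087 counts) were detected. Summed markers of T cells lay between 319.6 and 433.0 CPM, of myeloid cells between 72.9 and 145 CPM and of NK cells and ILC1s between 11.1 and 249 CPM, the highest of each in mouse 2. The T cell sum was mostly Cd3g (265, 385 and 314 CPM), with Cd4, Cd8a and Cd8b1 at 0 to 2 counts. Of the 10 T cell markers 5 were detected. Besides Cd3g these were Cd28 (672, 423 and 538 counts), Trac (292, 259 and 338), Cd3e (210, 141 and 91) and Cd3d (71, 21 and 41). The NK cell sum was mostly Gzma (7.19, 229 and 48.2 CPM), and 3 of its 10 markers were detected. Klrb1c (1, 115 and 77 counts) and Prf1 (0, 99 and 6 counts) were also highest in mouse 2. Ncr1 (28, 37 and 93 counts) and Ifng (60, 72 and 197 counts) were highest in mouse 3. Eomes and Tbx21 each had 0, 1 and 0 counts. In such bulk libraries, fewer cells of a type and less RNA per cell cannot be told apart.

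Of the 65 genes, 41 were detected, meaning that they reached 1 CPM in each of the 3 mice. By the same rule 38% of all protein-coding genes were detected. Another 15 had counts but lay below 1 CPM in at least 1 mouse, and 9 had 0 counts in every mouse. Counts of the 65 genes made up 0.894%, 0.897% and 0.896% of the libraries of mice 1, 2 and 3. The 6 highest genes, Prdx6, Gpx4, Prdx1, Txnl4a, Gpx1 and Txn1, held 59.0% of their summed CPM. The summed level was 8723, 9087 and 9065 CPM in mice 1, 2 and 3.

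**Figure D1:**
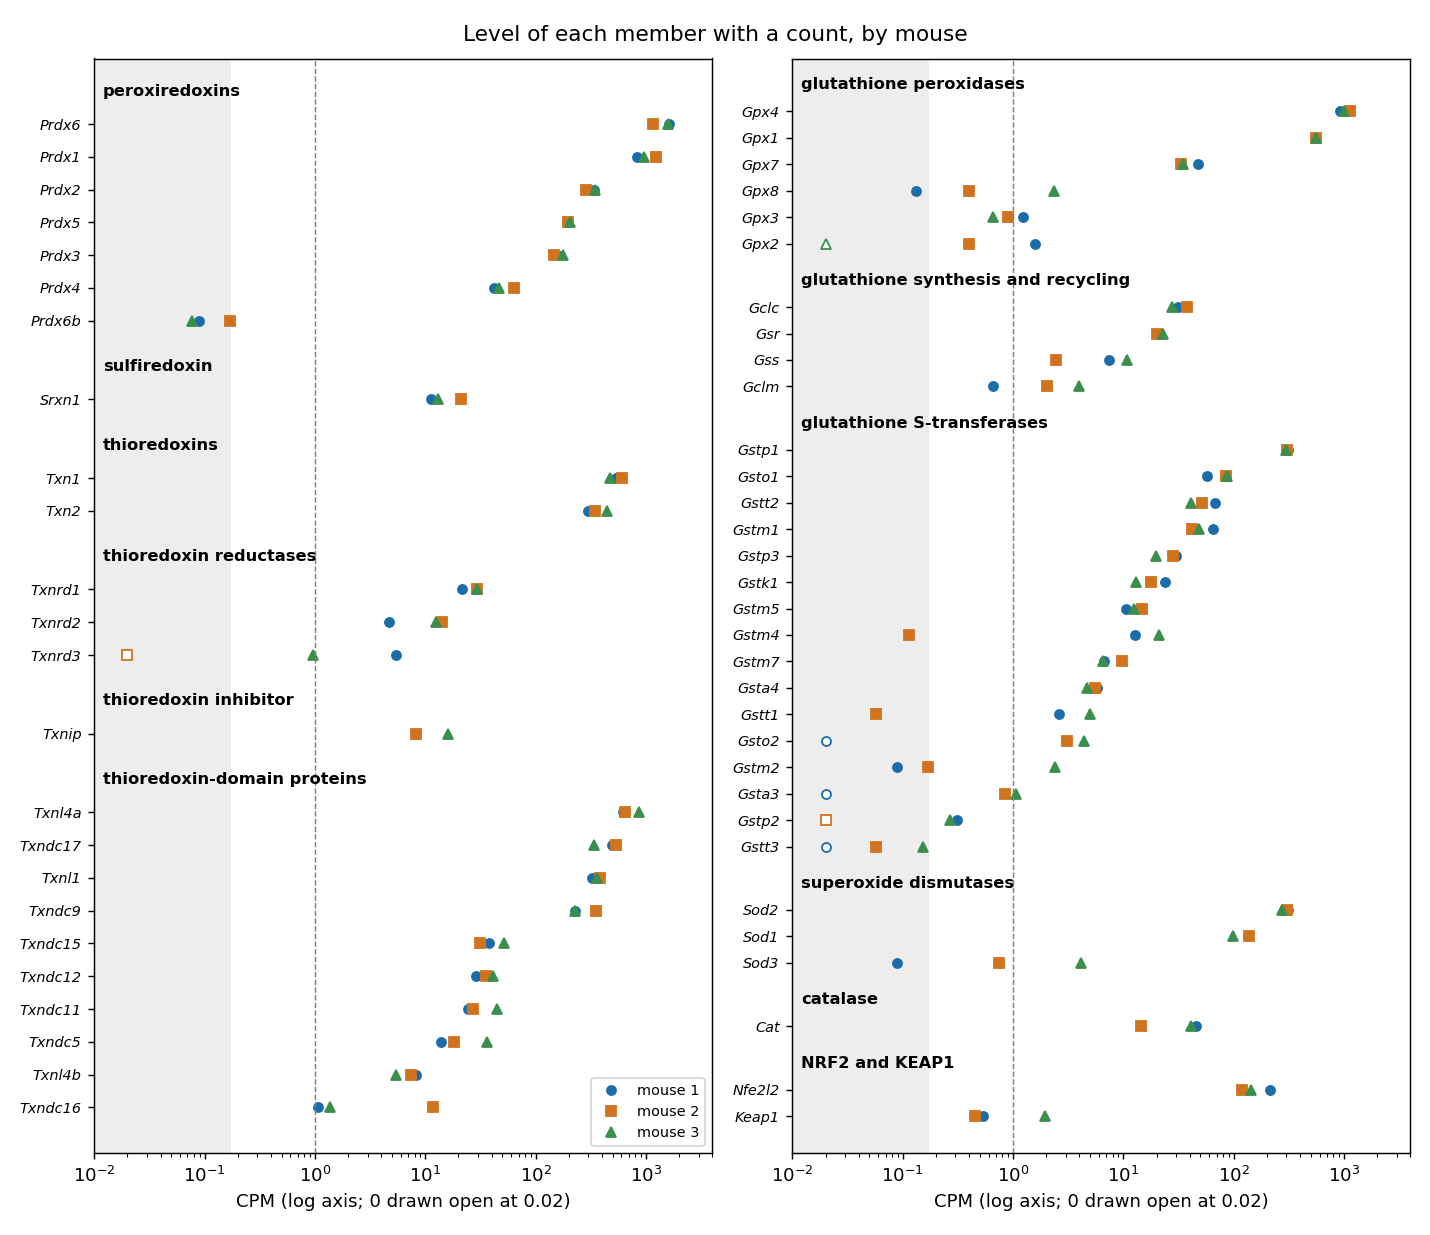
CPM of the 56 genes with at least 1 count in mouse 1 (circles), mouse 2 (squares) and mouse 3 (triangles) on a log axis, by family. The dashed line marks 1 CPM, the grey band the level that a count of 0 allows, and open symbols values of 0; all genes above 100 CPM lie within 1.81-fold between the mice, Nfe2l2 with the widest range, whereas Gpx8, Sod3, Gstm2 and Gclm near 1 CPM differ by more.

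Sequences are shown for the antioxidant response element, the motif through which NRF2 acts, because NRF2 and several of its known targets are among the genes. The core TGACNNNGC was searched on both strands from 250 bases before to 50 bases after RefSeq start sites (GRCm38.p6). It was found for 12 of the 56 genes that had such a window (21.4%) and for 15% of 16784 protein-coding genes with one. Of the 34 detected genes with a window 9 held a match, and of the 22 genes not detected 3 did. The stretches below are those of 4 genes known as NRF2 targets and of Nfe2l2 itself, read 5′ to 3′ on the strand of the gene, with the match in capitals. A capital run that starts with GC is the core on the opposite strand.
Prdx1, chr4:116685454-116685486, plus strand: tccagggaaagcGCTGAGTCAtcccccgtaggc
Srxn1, chr2:152105540-152105572, plus strand: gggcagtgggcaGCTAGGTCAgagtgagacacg
Txnrd1, chr10:82859102-82859134, plus strand: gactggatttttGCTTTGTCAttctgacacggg
Gclm, chr3:122245411-122245443, plus strand: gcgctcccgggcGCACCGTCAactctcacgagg
Nfe2l2, chr2:75704883-75704913, minus strand: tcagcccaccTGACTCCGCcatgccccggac
The match is a property of the letters and not evidence of binding. Levels of these 5 genes differed widely, with Prdx1 at 1007 ± 197 CPM and Gclm at 2.23 ± 1.67 CPM.

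The peroxiredoxins, which reduce hydrogen peroxide through a reactive cysteine, were the most abundant family by summed CPM, and 6 of 7 were detected. Prdx6 encodes the single-cysteine member, which is recycled with glutathione and also has phospholipase activity (chromosome 1, 161240112 to 161251210, mm10). Prdx6 had 1602, 1161 and 1573 CPM in mice 1, 2 and 3. Prdx1, a cytosolic thioredoxin-dependent member (chromosome 4, 116685599 to 116700000), had 837, 1224 and 961 CPM. The order of this pair thus differed between the mice, with Prdx6 higher in CPM in mice 1 and 3 and Prdx1 in mouse 2. Prdx2, the other abundant cytosolic member, had 336, 286 and 342 CPM. Prdx5, found in mitochondria, peroxisomes and cytosol, had 191, 198 and 205 CPM, and the mitochondrial Prdx3 had 157, 148 and 178 CPM. Both varied little, with a coefficient of variation (CV) of 3.59% and 9.48%. Prdx4, the member of the endoplasmic reticulum, had 42.1, 63.1 and 46.7 CPM. The Prdx6 paralogue Prdx6b had 2, 3 and 2 counts and lay at the level that a count of 0 allows. Srxn1, the enzyme that repairs overoxidised peroxiredoxins, had 11.4, 21.3 and 12.9 CPM and, like Prdx1 and Prdx4, was highest in mouse 2.

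Longer transcripts collect more reads, so CPM ranks genes by reads and not by transcripts, and pairs of genes and family shares were computed after division by length. The main length was the sum of all annotated exons (GENCODE M21), and the mean length of the gene's RefSeq mRNAs was added after the data were seen, because summed exons include long alternative transcripts. On the first scale Prdx1 held 34.4 ± 6.61% and Prdx6 31.3 ± 5.46% of the family's CPM per kb. With RefSeq mRNA length Prdx6 led with 47.1 ± 6.28% and Prdx1 held 24.2 ± 5.82%. On the first scale the order also differed between the mice. Prdx6 held 35.7% against 29.4% for Prdx1 in mouse 1 and 33.0% against 31.8% in mouse 3. In mouse 2 Prdx1 held 41.9% and Prdx6 25.2%. Which of the 2 leads in the mean therefore depends on the length used, and with summed exons also on the mouse. Prdx1 exceeded Prdx2 per kb in 3 of 3 mice, with a log2 difference of 1.63 ± 0.41 (0.5 was added to each value before the logarithm; exact two-sided sign-flip permutation test over 3 libraries, p = 0.25). With 3 libraries that test cannot give a p below 0.25. For Prdx5 minus Prdx3 the difference was −0.23 ± 0.11 with summed exons, lower in 3 of 3 mice (exact p = 0.25), and 0.53 ± 0.11 with RefSeq mRNA length, higher in 3 of 3. Its direction was thus set by the length used.

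Thioredoxin, the small protein that reduces disulphides and recycles peroxiredoxins, was represented by both of its genes. Txn1, the cytosolic form (chromosome 4, 57943373 to 57956411), had 537, 611 and 476 CPM, and Txn2, the mitochondrial form, had 301, 343 and 440.1 CPM. Txn1 exceeded Txn2 per kb in 3 of 3 mice, with a log2 difference of 2.59 ± 0.42 (exact p = 0.25), and by 0.90 ± 0.42 with RefSeq mRNA length. The reductases were far lower in CPM. Txnrd1, the cytosolic selenoenzyme that reduces thioredoxin, had 21.4, 29.5 and 29.7 CPM. Txnrd2, its mitochondrial counterpart, had 4.72, 14.2 and 12.5 CPM and was lowest in mouse 1. Txnrd1 exceeded Txnrd2 per kb in 3 of 3 mice, by 0.66 ± 0.44 (exact p = 0.25). Txnrd3, a paralogue known from testis, had 123, 0 and 25 counts in mice 1, 2 and 3, or 5.43, 0 and 0.959 CPM. It was above 1 CPM in mouse 1 only.

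Txnip, which encodes the protein that binds and inhibits thioredoxin, had 8.29, 8.25 and 16.0 CPM. Txnip was lower than Txn1 per kb in 3 of 3 mice, with a log2 difference of −7.07 ± 0.65 (exact p = 0.25). An antisense gene overlaps 19.4% of its exons, and reads from the 2 strands cannot be told apart in these libraries. Txnip itself was highest in mouse 3.

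The thioredoxin-domain proteins were a mixed group of 12 genes, of which 10 were detected. Txnl4a, a component of the spliceosome, had 619, 651 and 868 CPM and was highest in mouse 3. Txndc17, a cytosolic disulphide reductase related to thioredoxin, had 494, 532 and 340.1 CPM and was lowest in mouse 3. Txnl1, which associates with the proteasome, had 327, 383 and 363 CPM. Txndc17 led the group per kb, with 54.7 ± 8.84% of its summed CPM per kb, against 25.6 ± 6.73% for Txnl4a and 8.88 ± 0.79% for Txnl1. Txndc9, a cofactor of the cytosolic chaperonin, had 268 ± 70.1 CPM, and Txndc15, Txndc12, Txndc11, Txndc5, Txnl4b and Txndc16 had means between 4.70 and 40.2 CPM. The sperm genes Txndc2 and Txndc8 had 0 counts in every mouse.

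Glutathione peroxidases reduce peroxides with glutathione, and 2 selenoenzymes made up nearly all of their signal. Gpx4, which reduces phospholipid hydroperoxides and protects cells from ferroptosis (chromosome 10, 80047166 to 80056439), had 915, 1131 and 1007 CPM. Gpx1, the cytosolic and mitochondrial peroxidase of soluble peroxides (chromosome 9, 108339080 to 108340342), had 559, 562 and 553 CPM. With TMM scaling Gpx1 had the lowest spread of all 41 detected genes, with a CV of 0.791%, a rank that depends on the scaling used. Per kb, Gpx4 was the highest and Gpx1 the third highest of the 65 genes with either length, at 590.4 ± 62.9 and 387 ± 3.06 CPM per kb of summed exons. Gpx4 exceeded Gpx1 per kb in 3 of 3 mice, with a log2 difference of 0.60 ± 0.15 (exact p = 0.25), and the pair held 58.4 ± 2.84% and 38.5 ± 2.12% of the family's CPM per kb. A pseudogene, Gpx4-ps2, shares 61.7% of the 50-base stretches of the longest Gpx4 transcript, so part of the Gpx4 reads could have been divided or dropped in counting.

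The other glutathione peroxidases were low. Gpx7, an enzyme of the endoplasmic reticulum, had 47.2, 33.6 and 34.6 CPM. Its relative Gpx8 had 3, 7 and 61 counts and passed 1 CPM only in mouse 3. Gpx3, the secreted plasma form, had 0.932 ± 0.292 CPM. Gpx2, known from gut epithelium, had 36, 7 and 0 counts, and the summed epithelial markers had 89.8, 33.7 and 32.8 CPM, with 2 of 12 detected and 5 at 0 counts, among them Cdh1, Fabp2 and Muc2. That sum was carried by Defa24 (59.0, 23.6 and 5.71 CPM) and Epcam (29.4, 3.70 and 25.8 CPM), and Epcam was high in mouse 3, where Gpx2 had 0 counts. The cells were sorted as CD45 positive, a gate meant to leave out epithelium, and Defa24 and Epcam were counted nonetheless. The part of epithelial RNA in the Gpx2 counts was not tested. Gpx5 (epididymis) and Gpx6 (olfactory epithelium) had 0 counts.

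Glutathione is made in 2 steps, by glutamate-cysteine ligase and glutathione synthetase. Gclc, the catalytic subunit of the ligase and the rate-limiting step, had 31.6, 37.9 and 27.5 CPM. Gclm, the modifier subunit that raises its activity, had 15, 36 and 104 counts, or 0.662, 2.05 and 3.99 CPM, and passed 1 CPM in mice 2 and 3 only. Gclc exceeded Gclm per kb in 3 of 3 mice, with a log2 difference of 3.44 ± 0.58 (exact p = 0.25). The added 0.5 exceeds the mean Gclm value of 0.355 CPM per kb, and with 0.1 added the difference was 4.43 ± 1.03. Gss, the synthetase, had 7.41, 2.45 and 10.8 CPM and was lowest in mouse 2. Gsr, which regenerates reduced glutathione, was even, with 20.3, 20.2 and 23.0 CPM. Txnrd1 and Gsr, the cytosolic reductases of the thioredoxin and glutathione systems, were close. Txnrd1 minus Gsr was −0.94 ± 0.20 on the log2 scale with summed exons, lower in 3 of 3 mice (exact p = 0.25), and 0.070 ± 0.22 with RefSeq mRNA length, so that no order can be given.

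Glutathione S-transferases, which join glutathione to electrophiles, numbered 21, and 9 were detected. Gstp1, the pi-class enzyme and the leading member, had 311, 305 and 298 CPM with a CV of 2.09%, and held 55.8 ± 0.91% of the family's CPM per kb. Gsto1, of the omega class, had 57.3, 85.3 and 87.2 CPM and was lowest in mouse 1. Gsto1 was lower than Gstp1 per kb in 3 of 3 mice, with a log2 difference of −2.39 ± 0.36 (exact p = 0.25). Gstm1, of the mu class, had 65.3, 41.9 and 48.8 CPM. Gstt2, Gstp3, Gstk1, Gstm5, Gstm7 and Gsta4 had means between 5.31 and 53.1 CPM. The alpha-class genes Gsta1 and Gsta2, abundant in liver and gut, had 0 counts, as had Gstm3, Gstm6 and Gstt4. Gsta1, Gsta2, Gstm3 and Gstm6 share 89.7%, 64.2%, 28.8% and 11.5% of the 50-base stretches of their transcripts with other genes, and how such reads were counted is unknown, so these counts of 0 are uncertain. Gstp2 had 7, 0 and 7 counts. It shares 64.3% of the 50-base stretches of its transcript with Gstp1, and the division of reads between them is uncertain. Of all 65 genes, 14 share more than 10% of such stretches with transcripts of other genes, among them Gpx4, Gstp1, Gstm1, Prdx1, Prdx2 and Prdx5. For 9 genes, Txnip and Keap1 included, more than 10% of the exons overlap other genes. Among them are Prdx5 (19.1%), Gss (15.4%), Txndc5 (11.9%) and Prdx2 (11.5%), each overlapped from the opposite strand. Reads of the 2 strands cannot be told apart, so these counts may hold reads of the overlapping genes. Txnl4a is overlapped over 10.1% of its exons by the protein-coding gene Gm16286 on its own strand. Its counts and family share carry the same limit.

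Of the superoxide dismutases, Sod1, the copper-zinc enzyme of the cytosol, had 136, 138 and 99.1 CPM. Sod2, the manganese enzyme of mitochondria, had 312, 307 and 273 CPM. Sod1 minus Sod2 per kb was 0.061 ± 0.16 on the log2 scale with summed exons, higher in 2 of 3 mice (exact p = 0.5). It was 1.91 ± 0.17 with RefSeq mRNA length, where Sod1 was higher in 3 of 3 mice. The summed exons of Sod1 span 3.97 kb and its RefSeq mRNA 0.641 kb. Undivided CPM gave −1.27 ± 0.17. The order of these 2 genes therefore cannot be given without the length of the transcripts actually made. Sod3, the secreted form, had 2, 13 and 107 counts and passed 1 CPM only in mouse 3. Cat, the peroxisomal catalase, had 45.1, 14.5 and 41.2 CPM and was lowest in mouse 2. Prdx1 exceeded Cat per kb in 3 of 3 mice, with a log2 difference of 4.76 ± 1.13 (exact p = 0.25).

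The regulators lay far apart. Nfe2l2, which encodes NRF2 (chromosome 2, 75675513 to 75704663), had 215, 119 and 143 CPM and was highest in mouse 1. Keap1, which encodes the adaptor that marks NRF2 for degradation (chromosome 9, 21229730 to 21239332), had 12, 8 and 51 counts, or 0.529, 0.455 and 1.96 CPM. Nfe2l2 exceeded Keap1 per kb in 3 of 3 mice, with a log2 difference of 5.89 ± 0.60 (exact p = 0.25), and by 7.19 ± 0.94 with 0.1 added in place of 0.5. An antisense gene overlaps 10.9% of the exons of Keap1. Adjusted over the 12 pairs compared (Benjamini-Hochberg), the exact sign-flip p was 0.273 for 11 pairs and 0.5 for Sod1 minus Sod2.

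**Figure D2:**
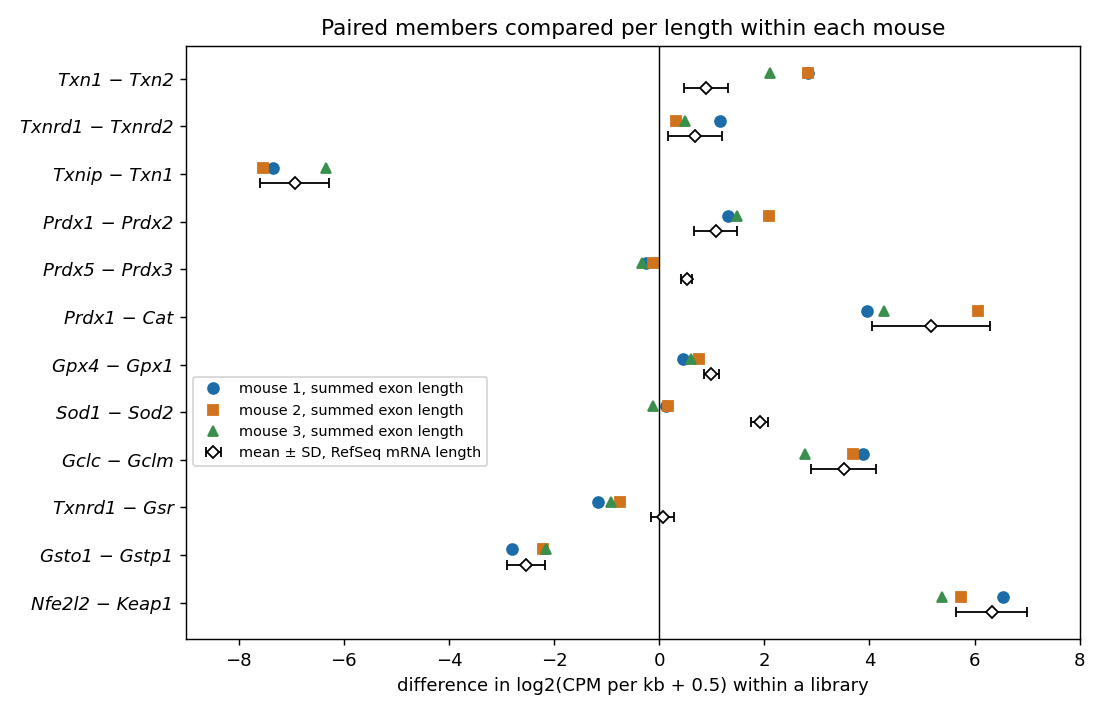
Difference in log2(CPM per kb + 0.5) between the first and the second gene of 12 pairs within each mouse, with summed exon length (filled symbols) and as mean ± SD with RefSeq mRNA length (open diamonds). Positive values mean that the first gene was higher; Prdx5 minus Prdx3, Sod1 minus Sod2 and Txnrd1 minus Gsr lie near 0 or move across it with the length used, whereas the other 9 pairs stay on 1 side.

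Variation between the mice was then tested for all genes with enough counts. Of the 65 genes, 43 passed the filter on low counts, and none was called more variable than genes of its abundance (edgeR quasi-dispersion, upper-tail F test, lowest adjusted p = 0.975). Over all 9175 genes tested, 0.185% were called. At an unadjusted p below 0.05 there was 1 of the 43 genes, Txndc16, against 4.53% of all genes. DESeq2 marked 0 of the 43 as dispersion outliers, against 24 of all 9175 genes, and limma called 0, against 17 of 9175. The median log2 ratio to the abundance trend was −0.80 for the 43 genes and −0.43 over all genes tested. The filter asks for counts in every library and so leaves out genes near 0 in 1 mouse. Without it 56 of the genes were tested and again 0 were called, against 22 of all 15092 genes.

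**Figure D3:**
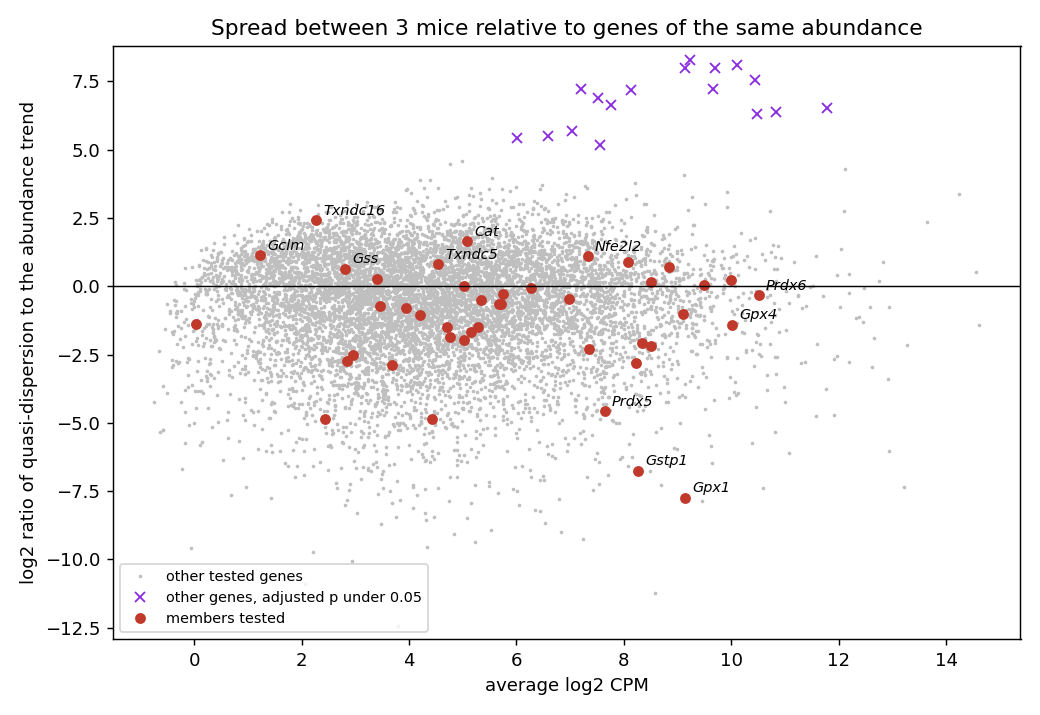
Log2 ratio of each gene's quasi-dispersion between the 3 mice to the abundance trend (vertical axis) against its average log2 CPM (horizontal axis), with the 43 tested antioxidant genes in red, other tested genes in grey and the genes called at an adjusted p below 0.05 as crosses. All 17 crosses lie above every red point, of which Txndc16 is the highest and Gpx1 the lowest.

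The median CV between the mice was 19.8% for the 41 detected genes, against 28.2% for all 7981 detected protein-coding genes. The 41 genes had a higher median level, 50.6 against 25.1 CPM, and no test of the list was made. Without mouse 2 the medians were 20.5% and 22.3%, and with a minimum of 5 CPM they were 19.8% and 23.8%. The highest value lay within 1.5-fold of the lowest for 23 of the 41 genes (34.9% of all detected protein-coding genes). This group held all 6 detected peroxiredoxins, Gpx1, Gpx4, Gpx7, Txn1, Txn2, Txnrd1, Sod1, Sod2, Gclc, Gsr and Gstp1. A spread of 2-fold or more was seen for 5 genes, Txndc5, Txnrd2, Cat, Gss and Txndc16 (38% of all detected protein-coding genes). The 41 genes had no common direction. The highest value was in mouse 1 for 12, in mouse 2 for 15 and in mouse 3 for 14, against 31.7%, 32.9% and 35.4% of all detected protein-coding genes. The lowest value was in mouse 1 for 17, in mouse 2 for 11 and in mouse 3 for 13, against 28.9%, 38.1% and 33%.

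The 5 detected genes with the highest CV differed in which mouse stood out. Txndc16 had 24, 205 and 36 counts, or 1.06, 11.7 and 1.38 CPM, and stood out in mouse 2 (edgeR adjusted p = 0.975, unadjusted p = 0.0250). Cat and Gss were lowest in mouse 2 (edgeR adjusted p = 0.975 and 0.990). Txnrd2 was lowest in mouse 1 (adjusted p = 0.990). Txndc5, a disulphide isomerase of the endoplasmic reticulum, had 13.9, 18.3 and 36.5 CPM (edgeR adjusted p = 0.982). Txndc11, another protein of that compartment, had 24.5, 26.8 and 44.8 CPM. Both were lowest in mouse 1 and highest in mouse 3. The summed level of 14 B and plasma cell markers ran likewise, with 12806, 34607 and 63269 CPM, and 10 of them were detected. That sum was carried by Igkc (4822, 18010 and 34158 CPM), Jchain (5527, 13790 and 18473 CPM) and Igha (1742, 2040 and 9391 CPM). Sdc1 had 1, 3 and 16 counts. Of 6 genes listed here for the endoplasmic reticulum, Txndc12 (29.0, 35.5 and 41.1 CPM) and Gpx8 ran in the same order as Txndc5. Prdx4 was highest in mouse 2 and Gpx7 in mouse 1. The sum of the 6 was 157, 178 and 206 CPM. The list may not be complete, and Txndc15 (37.8, 31.3 and 51.7 CPM) and Txndc16 were not on it. The disulphide isomerase genes Pdia3 (852, 344 and 966 CPM), Pdia6 (381, 245 and 469 CPM), Pdia4 and P4hb were lowest in mouse 2 and highest in mouse 3. The part of plasma cell RNA in these values was not tested.

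Several genes that were not detected in all mice were nevertheless well covered in some. Gstm4 had 292, 2 and 551 counts, or 12.9, 0.114 and 21.1 CPM. Gstt1 had 59, 1 and 130 counts, and Gsto2 had 0, 54 and 114 counts. Gstm4 and Gstt1 were thus near 0 in mouse 2 alone and Gsto2 in mouse 1 alone. Gstm2 (2, 3 and 63 counts), Sod3 and Gpx8 lay below 1 CPM in mice 1 and 2 and were highest in mouse 3. Summed fibroblast and endothelial markers, a list chosen after these values were seen, had 49.6, 44.0 and 88.2 CPM in mice 1, 2 and 3. The higher sum in mouse 3 came from the smooth muscle gene Acta2 (0.397, 0.455 and 41.6 CPM), while Pecam1 was highest in mouse 1 (36.4, 19.7 and 17.7 CPM). Of the 12 markers 5 were detected, and Cdh5 and Kdr had 0 counts. The CD45 gate is meant to leave out stromal cells, and Acta2 was counted nonetheless. The part of stromal RNA in Sod3, Gpx8 and Gstm2 was not tested.

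**Figure D4:**
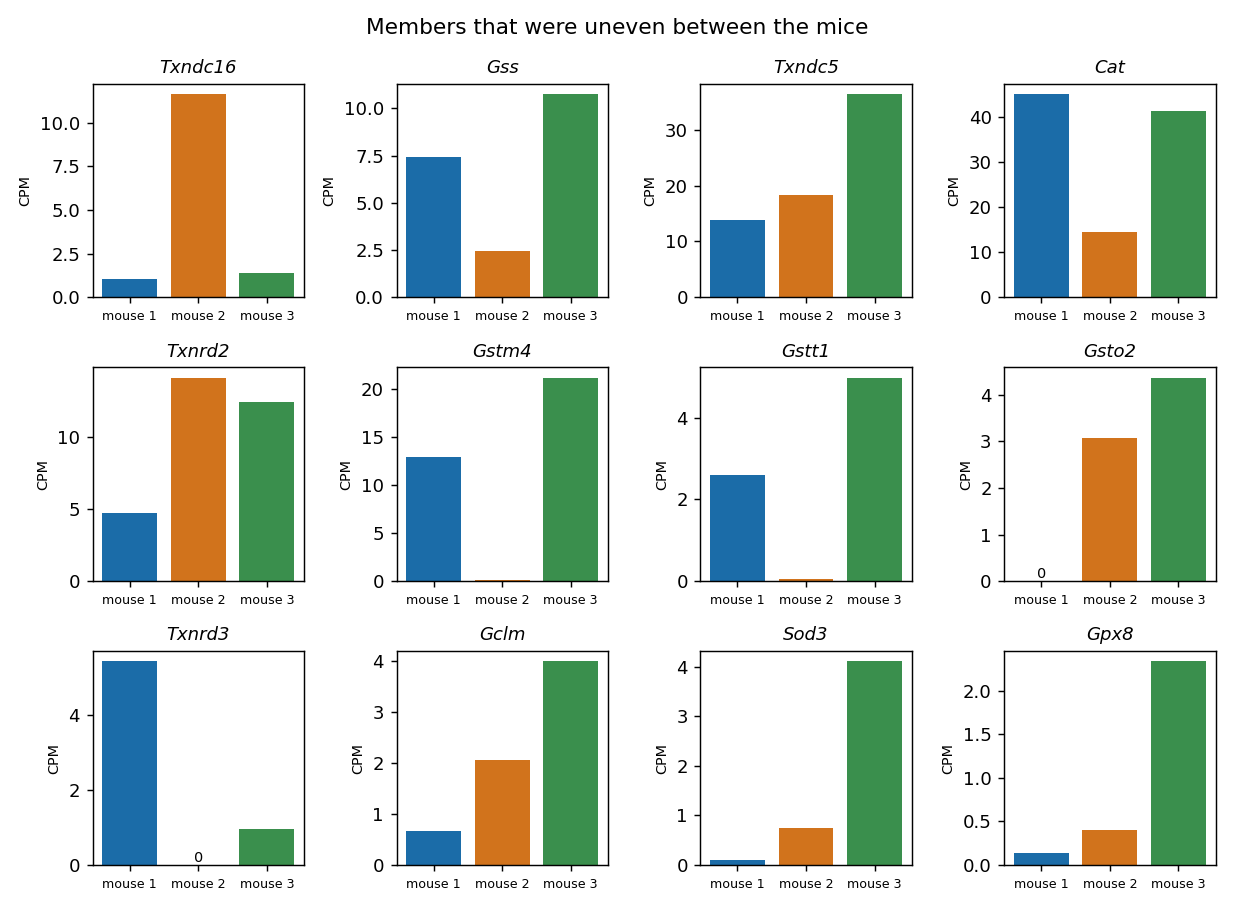
CPM in mice 1, 2 and 3 for the 5 detected genes with the highest CV (Txndc16, Gss, Txndc5, Cat and Txnrd2) and for 7 genes that lay below 1 CPM in at least 1 mouse. The mouse with the highest bar differs from gene to gene; Txndc16 stands out in mouse 2, Txnrd3 in mouse 1, and Sod3 and Gpx8 in mouse 3.

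By location in the cell, 6 genes listed here as mitochondrial, Prdx3, Prdx5, Txn2, Txnrd2, Sod2 and Gstk1, were all detected. Their summed levels were 989, 1028 and 1121 CPM. The list leaves out Gpx1, which is also found in mitochondria, and holds Prdx5, which is also found elsewhere. Of the 7 genes whose mouse products are selenoproteins (Gpx1, Gpx2, Gpx3, Gpx4, Txnrd1, Txnrd2 and Txnrd3) 4 were detected, and their sum of 1509, 1738 and 1604 CPM came mostly from Gpx4 and Gpx1.

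Related genes outside the naming rule were taken from 7 lists. Of their 114 genes 84 were detected, against 38% of all protein-coding genes. Of the 87 tested, 0 were called more variable than the trend, against 0.185% of all genes tested. At an unadjusted p below 0.05 there were 5 (edgeR), against 4.53% of all genes. Among NRF2 partners and targets, 16 of 18 were detected, led by the ferritin chains Fth1 (5073 ± 796 CPM) and Ftl1 (346 ± 27.4 CPM) and the autophagy receptor Sqstm1 (255 ± 99.1 CPM). Nqo1, a quinone reductase used as a readout of NRF2 activity, had 16.4 ± 6.87 CPM, and Hmox1, which encodes haem oxygenase, had 0, 3.64 and 2.38 CPM. Among glutaredoxins and other users of glutathione, 15 of 20 were detected, led by Clic1 (597 ± 78.3 CPM), the glutaredoxin Glrx (166 ± 19.8 CPM) and Mgst2 (142 ± 29.7 CPM), and the prostaglandin D2 synthase Hpgds had 61.5 ± 13.9 CPM.

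For the supply of glutathione, 7 of 15 genes were detected, led by Slc3a2 (628 ± 239 CPM), the heavy chain of amino acid exchangers, Slc25a39 (71.5 ± 19.4 CPM), the mitochondrial glutathione importer, and the glutamine transporter Slc1a5 (69.4 ± 20.5 CPM). Slc7a11, the cystine transporter that pairs with Slc3a2, was not detected, with 0, 1 and 1 counts. On a list of 14 genes around NADPH, 12 were detected, led by Taldo1 (406 ± 115 CPM), Me2 (102 ± 23.2 CPM) and Nadk (39.7 ± 20.9 CPM). Me1 had 0 counts. The list is not limited to enzymes that form NADPH, and Taldo1 is not one of them. The NADPH-forming dehydrogenases G6pdx, Pgd, Idh1 and Idh2 had means of 15.2, 14.2, 11.2 and 22.6 CPM. Of 16 selenium genes 14 were detected, led by the selenoproteins Selenok (2276 ± 601 CPM), Selenof (1102 ± 167 CPM) and Selenow (926 ± 171 CPM). Another list of 16 genes held disulphide isomerases, disulphide oxidases, related thiol proteins and methionine sulphoxide reductases, and 13 were detected. It was led by the isomerase Pdia3, the oxidase Ero1a and the isomerase Pdia6 (721 ± 331, 574 ± 95.4 and 365 ± 113 CPM). Of 15 oxidant sources 7 were detected, led by Cyba (1528 ± 35.1 CPM), a membrane subunit of NADPH oxidase, Rac2 (801 ± 208 CPM) and Ncf4 (71.8 ± 24.0 CPM). Cybb had 32.8 ± 16.4 CPM and Ncf1 had 1, 1 and 0 counts, and Nox3, Nox4, Duox1 and Duox2 had 0 counts in every mouse.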

How the data were processed

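RNA-seq was made from ILC2s sorted from wild-type C57BL/6 mice, with a kit for very low RNA input that reads whole transcripts and does not mark strand, per the labels' protocols. The submitters' processing notes name CASAVA 1.8.2, STAR 2.3.0 and the mm10 genome. Neither they nor the labels name the counting program, its annotation, its treatment of reads that match several genes or the read length. The authors deposited whole-number counts per Entrez gene for 3 libraries, with totals of 17819551 to 26374248. GEO lists the libraries as separate samples of 1 group, and p-values measure only the spread between them.

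Counts were scaled to CPM with TMM factors and divided by summed exon length (GENCODE M21) for comparisons between genes. Variability was tested with edgeR 4.0.16 (quasi-likelihood, intercept only, filterByExpr minimum of 10 counts, robust prior off, upper-tail F test, Benjamini-Hochberg over 9175 genes, threshold 0.05), after the method was tested on simulated data. Pairs of genes were compared within libraries by exact sign-flip tests on log2(CPM per kb + 0.5). Alternatives were limma 3.58.1, size factors and outlier calls from DESeq2 1.42.0, other filters, lengths and pseudocounts, removal of immunoglobulin genes and leaving out each library. Promoter sequences come from RefSeq (GRCm38.p6). Of 27179 IDs, 25275 had a name in RefSeq. Values were printed for every gene of a compared pair, the 3 highest genes per kb of each family, the 5 detected genes with the highest CV and the 3 highest genes of each related list, and others were chosen after their values were seen. The genes and lists were chosen with earlier results of these data known.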

Additional observations from a re-analysis of the deposited data

How the results depend on the processing

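The series has 3 libraries, the treatment of reads shared between gene copies is unknown and was not varied, and genes near 1 CPM rest on few counts. None of the antioxidant genes was called more variable than the trend under any setting tried. Over all genes the number called was 17, but 30 with a mean of at least 5 CPM, 0 with a robust prior (408 genes at an unadjusted p below 0.05 in edgeR), 1 without immunoglobulin genes, and 13 to 31 when 1 library was left out, with the highest number without mouse 1. Leaving out 1 library gave a median CV of 15.2% to 20.5% (22.3% to 25.8% over all detected protein-coding genes) and 41 to 43 detected genes.

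The other changes came with the transcript length used. With the longest transcript, no division by length, and RefSeq mRNA length, the family share of Gstp1 was 63.5%, 53.1% and 61.0%, that of Gpx4 64.8%, 62.8% and 65.2%, that of Sod1 37.8%, 29.2% and 78.9%, and that of Txn1 74.4%, 60.0% and 64.9%. The share of Txnrd1 was 62.8% with the longest transcript and 68.1% undivided, that of Txndc17 23.6% undivided, and that of Prdx1 24.2% with RefSeq mRNA length. Prdx5 minus Prdx3 turned to 0.30 undivided and 0.53 with RefSeq mRNA length, Sod1 minus Sod2 to −0.70 with the longest transcript and −1.27 undivided, and Txnrd1 minus Gsr to 0.32 undivided and 0.070 with RefSeq mRNA length. The RefSeq length was chosen after seeing the data. Sod1 minus Sod2 was 1.91 with RefSeq mRNA length, and Txn1 minus Txn2 kept its direction but was 0.59 undivided and 0.90 with RefSeq mRNA length. No paired analysis was possible because there was 1 group only, and the pairs compared are genes within a library.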
